A study of Equus asinus with 2 samples.

Results

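Germ cells that carried transcripts of DAZL, MAEL or DDX4 were selected from single-cell RNA libraries of fetal donkey (Equus asinus) gonads, and 529 such cell barcodes were found among 23531. The library of tissue labelled ovary at 8 weeks of gestation gave 336 of its 14593 barcodes, and the library of gonad with mesonephros at 4 weeks gave 193 of its 8938. A barcode was considered when it held 5000 to 40000 UMIs (unique molecular identifiers, which tag single RNA molecules). It passed the germ gate when POU5F1, NANOG, TFAP2C, NANOS3 and DND1 together reached 5 UMIs per 10000, when at least 2 of these genes were detected, and when AMH, a hormone of Sertoli cells, stayed under 5 per 10000. Members also held at least 2 UMIs in the sum of DAZL, MAEL and DDX4. These measured values chose the members, so the levels of the 9 genes of the rule are given as a description.

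Primordial germ cells enter the gonadal ridge with a programme of pluripotency factors and germline transcription factors. In the gonad they then switch on genes for germ granules, small RNAs and meiosis, among which DAZL, DDX4 and MAEL are used as markers of this later state. DAZL binds germ cell mRNAs and licenses gonadal germ cells to differentiate in mouse, DDX4 is an RNA helicase of germ granules, and MAEL works in the piRNA pathway, in which PIWI proteins and their small RNAs silence transposons. DND1, another RNA-binding protein, protects germ cells and belongs to the germ gate here.

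Each stage was 1 library, so nothing could be tested between stages, and stage, dissected tissue and library cannot be told apart. The sample labels carry no week, which was taken from the series' design text by way of the tissue names. The labels give neither the number of fetuses nor their sex, and neither library carried a treatment or an altered allele. All intervals given are at 95%, cover counting error only and say nothing of differences among animals. Levels are in CPM, counted as a gene's UMIs in every 1000000 of the summed group. Members held 5740717 UMIs at 8 weeks (median 15769 UMIs and 5389 genes per barcode) and 4084468 UMIs at 4 weeks (median 21074 UMIs and 6197 genes). They were set against the other germ-gate barcodes, 143 at 8 weeks and 168 at 4 weeks, and against somatic barcodes with a germ gene sum under 5 per 10000, 6810 and 4900. The libraries shared 38 barcode sequences, of which 0 were members at 8 weeks and 1 was a member at 4 weeks. The somatic barcodes of the library labelled ovary held AMH at 601 CPM, against 430 CPM at 4 weeks. Their markers of pre-granulosa cells, the supporting cells of a fetal ovary, summed to 93.2 CPM at 8 weeks and 184 CPM at 4 weeks, so the ovary label was not matched by the supporting cell genes.

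Members at 8 weeks carried more of the 3 genes per barcode, and more often all 3 together, than members at 4 weeks. The summed level of DAZL, MAEL and DDX4 in a member had a median of 3.61 per 10000 UMIs (0.750 to 13.7 from the lowest to the highest) at 8 weeks and 1.65 per 10000 (0.542 to 8.85) at 4 weeks. All 3 genes were seen in 159 of 336 members at 8 weeks (47.3%, 41.9 to 52.8, exact Clopper-Pearson interval), against 37 of 193 at 4 weeks (19.2%, 13.9 to 25.4). DDX4 alone was seen in 17 members at 8 weeks (5.06%, 2.98 to 7.98) and in 46 at 4 weeks (23.8%, 18.0 to 30.5). The 4-week members were thus mainly DDX4 barcodes, since 167 of 193 held DDX4, while DAZL was found in 104 and MAEL in 96. At 8 weeks 278 of 336 members held DAZL, 264 held DDX4 and 248 held MAEL.

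DAZL stood at 146.5 CPM in members at 8 weeks and at 49.2 CPM in members at 4 weeks. MAEL showed 112.5 and 38.7 CPM in the same order of stages. DDX4 was closer between the stages, at 128 CPM at 8 weeks and 102 CPM at 4 weeks. The other germ-gate barcodes held all 3 at low levels: DAZL stood at 21.1 CPM at 8 weeks and 7.65 CPM at 4 weeks, MAEL at 17.0 and 6.69 CPM, and DDX4 at 19.7 and 23.9 CPM. Barcodes that passed by the smallest margin differed little in their gate genes from those that just failed. The 62 members with exactly 2 UMIs at 8 weeks had a median germ gene sum of 18.35 per 10000, and the 85 germ-gate barcodes with 1 UMI had 18.2. At 4 weeks 81 members had exactly 2 UMIs and 10 had at least 10, while at 8 weeks 75 had at least 10.

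**Figure D1:**
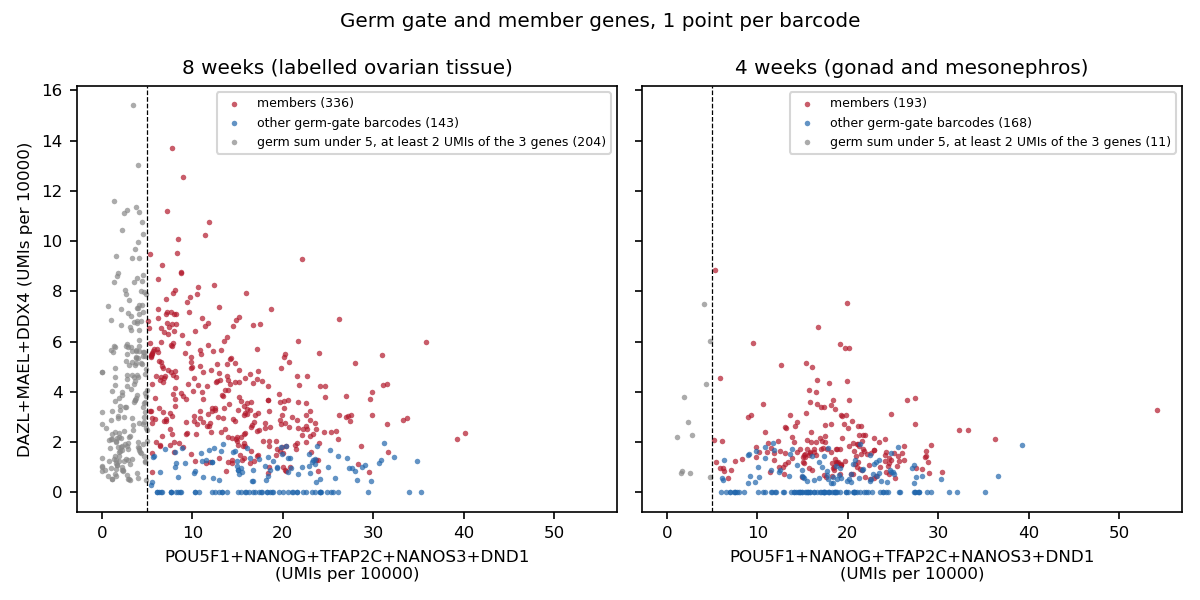
Each point is a barcode of the 8-week library (left) or the 4-week library (right), with the summed germ gate genes per 10000 UMIs on the horizontal axis and DAZL, MAEL and DDX4 together on the vertical axis. Red points are the 336 and 193 members, blue points the other germ-gate barcodes, and grey points barcodes left of the gate (dashed line at 5) that held at least 2 UMIs of the 3 genes, 204 at 8 weeks and 11 at 4 weeks.

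Members were a larger share of the germ gate at 8 weeks in each of the 3 depth ranges compared. They made up 70.2% (65.8 to 74.2) of the 479 germ-gate barcodes at 8 weeks and 53.5% (48.2 to 58.7) of the 361 at 4 weeks, and 4.56% (4.09 to 5.06) and 3.64% (3.15 to 4.18) of all barcodes in the UMI window. With the gate at 10 per 10000 the order of the window shares turned round, to 3.09% at 8 weeks and 3.32% at 4 weeks, while the gate shares were 65.7% and 54.2%. The rule asks for a fixed number of UMIs, and members were deeper than the other germ-gate barcodes, whose medians were 8275 UMIs at 8 weeks and 11108 at 4 weeks. Among germ-gate barcodes of 5000 to 10000 UMIs, members were 47.8% (40.2 to 55.4) at 8 weeks and 18.4% (10.9 to 28.1) at 4 weeks. From 10000 to 20000 UMIs they were 78.5% (71.7 to 84.2) and 48.6% (40.4 to 57.0), and from 20000 to 40000 UMIs 90.8% (84.2 to 95.3) and 83.3% (75.7 to 89.4), where the intervals overlap. With every barcode thinned to 5000 UMIs, 177 of 457 germ-gate barcodes met the rule at 8 weeks (38.7%, 34.2 to 43.4) and 46 of 347 at 4 weeks (13.3%, 9.87 to 17.3).

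After thinning, a DAZL UMI was found in 50.9% (45.4 to 56.4) of members and 1.82% (1.52 to 2.17) of somatic barcodes at 8 weeks, and in 19.2% (13.9 to 25.4) of members and 0.163% (0.0705 to 0.321) of somatic barcodes at 4 weeks. Unthinned, the shares were 82.7% against 3.58% at 8 weeks and 53.9% against 0.408% at 4 weeks. Somatic barcodes had median depths of 10145 UMIs at 8 weeks and 10126.5 at 4 weeks.

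The members carried the identity genes of germ cells at both stages, so the germ cell name held against genes that the rule had not used. SOX17, which specifies human primordial germ cells, stood at 122.5 CPM in members and 9.23 CPM in somatic barcodes at 8 weeks, and at 142 and 16.5 CPM at 4 weeks. KIT, the receptor that supports germ cell survival, stood at 334 and 14.1 CPM at 8 weeks and at 359 and 16.8 CPM at 4 weeks. PRDM1, a repressor of somatic genes, stood at 62.5 and 17.1 CPM at 8 weeks and at 108.5 and 28.4 CPM at 4 weeks. DPPA4, a pluripotency-associated gene, stood at 15.7 and 0.207 CPM at 8 weeks and at 31.1 and 0.386 CPM at 4 weeks. DPPA3 had no UMI in 8-week members and 0.245 CPM in 4-week members, and was also without a UMI in somatic barcodes.

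Among the rule genes of the gate, POU5F1, the core pluripotency factor, stood at 497 CPM in members at 8 weeks and 914 CPM in members at 4 weeks. It was found in 90.8% of members at 8 weeks and in all 193 at 4 weeks, against 9.09% and 5.57% of somatic barcodes. NANOG, its partner, stood at 355 and 360 CPM in members. DND1 stood at 135.5 CPM in members and 139 CPM in other germ-gate barcodes at 8 weeks, and at 66.3 and 73.6 CPM at 4 weeks. Both groups had to pass the gate that holds DND1, so nothing is read from this likeness.

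**Figure D2:**
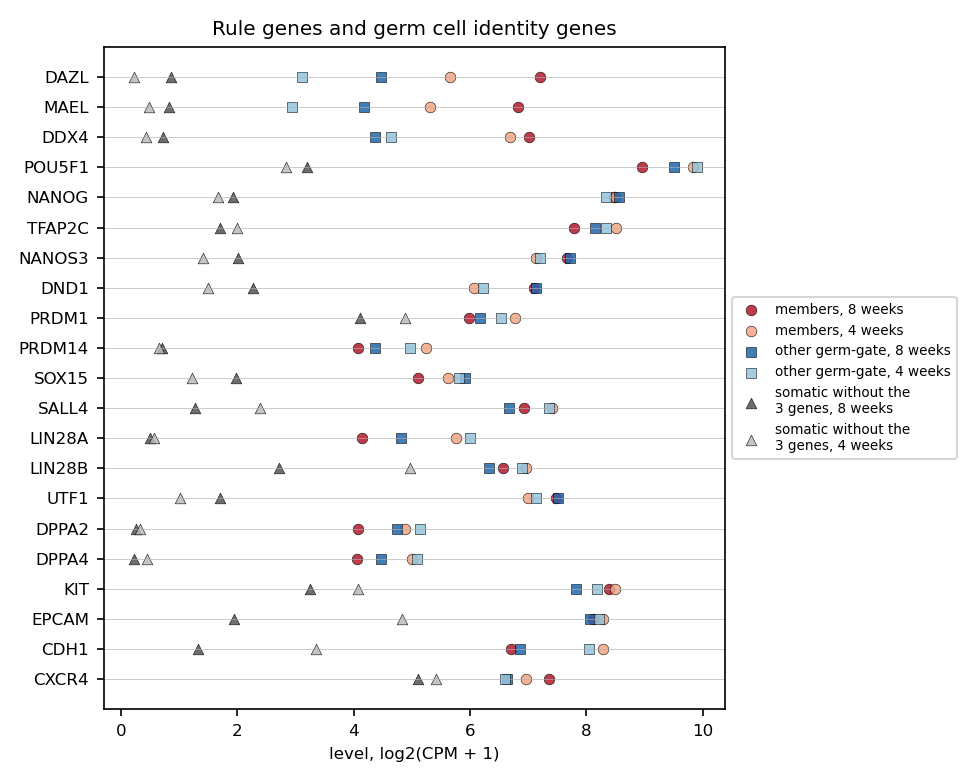
Levels of the rule genes and of germ cell identity genes as log2(CPM + 1), 1 row per gene, with 1 symbol per group of barcodes and library. Members and other germ-gate barcodes lie together for POU5F1 and the genes below it, apart from DAZL, MAEL and DDX4, and somatic barcodes without the 3 genes lie far to the left.

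Marker sums of stroma and steroidogenic cells were lower in members than in somatic barcodes, and the part of other cell types in the results below was not tested. The 7 stroma markers summed to 602 CPM in members, 1394 CPM in other germ-gate barcodes and 4616 CPM in somatic barcodes at 8 weeks, and to 389, 416 and 1646 CPM at 4 weeks. The 5 steroidogenic markers in the files summed to 180 CPM in members, 399 CPM in other germ-gate barcodes and 1631 CPM in somatic barcodes at 8 weeks, and to 163, 444 and 1528 CPM at 4 weeks. The 11 Sertoli markers summed to 366, 367 and 1223 CPM at 8 weeks and to 325, 328 and 1051 CPM at 4 weeks. That list holds AMH, which the germ gate limits and somatic barcodes may hold freely, so nothing is read from the lower Sertoli sum. Per barcode the Sertoli median was 3.20 per 10000 in members and 2.96 in somatic barcodes at 8 weeks, and 3.015 and 1.915 at 4 weeks. The stroma medians were 3.06 and 51.6 at 8 weeks and 2.39 and 1.575 at 4 weeks. The steroidogenic medians were 1.635 and 2.19, and 0.98 and 1.60. DMRT1, a gene of the Sertoli list which germ cells also express, gave 125 CPM of the 366 at 8 weeks and 96.5 CPM of the 325 at 4 weeks. At least 10 stroma marker UMIs per 10000 were held by 36 of 336 members at 8 weeks and 11 of 193 at 4 weeks, and at least 10 Sertoli marker UMIs by 6 and 2. Podocyte markers summed to 150 CPM in members, 44.4 CPM in other germ-gate barcodes and 191 CPM in somatic barcodes at 4 weeks. There 3 of the 3 podocyte genes compared were at least 2-fold higher in members than in other germ-gate barcodes, among only 12 such genes in all (0.156%), and 2 members held at least 10 per 10000 and the highest held 127. Endothelial, macrophage, erythroid, tubule, smooth muscle and pre-granulosa markers summed to at most 113 CPM in members of either stage.

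Against somatic barcodes the members held many genes at a higher level, and those with the highest ratios included SALL4, UTF1, CDH1 and FMR1NB. Of genes with a mean of at least 20 CPM over the compared groups, 1311 of 8052 were at least 2-fold higher in members at 8 weeks (16.3%) and 1222 lower (15.2%). At 4 weeks 1329 of 8108 were higher (16.4%) and 1259 lower (15.5%). The 15 genes named here were chosen for their ratios in both libraries, and nothing is read from what they have in common. OVOL2, a zinc-finger regulator of epithelial state, stood at 77.2 CPM in members and 1.52 CPM in somatic barcodes at 8 weeks, and at 80.8 and 0.572 CPM at 4 weeks. UTF1, a chromatin factor of pluripotent cells, stood at 177 and 4.54 CPM at 8 weeks and at 127 and 1.30 CPM at 4 weeks. SALL4, a zinc-finger factor of germ and stem cells, stood at 121 and 4.46 CPM at 8 weeks and at 170 and 4.62 CPM at 4 weeks. FOXH1, which acts with SMAD proteins downstream of NODAL, stood at 53.5 and 1.39 CPM at 8 weeks and at 67.1 and 0.649 CPM at 4 weeks.

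CDH1, the epithelial cadherin, stood at 103 CPM in members and 2.12 CPM in somatic barcodes at 8 weeks, and at 312 and 9.51 CPM at 4 weeks. RBM24, an RNA-binding protein, stood at 86.1 and 2.16 CPM at 8 weeks and at 161 and 6.74 CPM at 4 weeks. H2BC1, a testis-type histone H2B, stood at 169 and 7.12 CPM at 8 weeks and at 183 and 3.18 CPM at 4 weeks. FMR1NB, a cancer-testis antigen gene, stood at 649 and 30.0 CPM at 8 weeks and at 198 and 2.38 CPM at 4 weeks. CIST1, TRIML2, SLC30A3, MARCHF11, C9H5orf58, CCDC172 and BEND4 completed the 15, at 51.4 to 138 CPM in members at 8 weeks and at 55.1 to 136 CPM at 4 weeks. SLC30A3, a zinc transporter, stood at 118 CPM in members at 8 weeks and 136 CPM at 4 weeks, 51.9-fold and 32.9-fold over somatic barcodes.

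The somatic barcodes of the 8-week library were not free of germ cell RNA. With the somatic barcodes that held at least 2 UMIs of DAZL, MAEL and DDX4 left out, an alternative chosen after seeing the data, DAZL in somatic barcodes was 0.802 CPM at 8 weeks and 0.171 CPM at 4 weeks, in place of 6.71 and 0.649 CPM. The FMR1NB ratio of members over somatic barcodes was then 90.5 at 8 weeks in place of 21.6, and that of SALL4 was 85.1 in place of 27.1.

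Members at 8 weeks held more of the piRNA pathway genes than the other germ-gate barcodes. Of 28 listed pathway genes, 16 besides MAEL and DDX4 could be compared at 8 weeks, and 10 were at least 2-fold higher in members while 0 were at least 2-fold lower. Over all genes 98 of 7667 were at least 2-fold higher (1.28%) and 112 lower (1.46%). The median log2 ratio of the 16 genes was 1.07, against 0.12 over all genes compared. At 4 weeks 1 of 12 comparable genes was at least 2-fold higher in members and the median was 0.33, against 12 of 7712 genes (0.156%) and a median of 0.09 over all genes. Members were deeper than the other germ-gate barcodes, and with both groups held to 10000 to 20000 UMIs the piRNA medians were 0.98 at 8 weeks and 0.28 at 4 weeks. With both held to 5000 to 10000 UMIs they were 0.69 and 0.80, and the 4-week value rests on 16 members.

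The PIWI genes themselves were expressed at modest levels. PIWIL1, which loads piRNAs, stood at 54.2 CPM (48.3 to 60.5) in members and 21.8 CPM in other germ-gate barcodes at 8 weeks, 2.49-fold higher, 1.73 to 3.70. At 4 weeks PIWIL1 stood at 37.7 CPM in members and 17.7 CPM in other germ-gate barcodes, 2.13-fold higher, 1.48 to 3.14. It was the single gene at least 2-fold higher in members of both libraries among the 77 and 7 such genes that could be compared in both. The 4-week log2 ratio of 1.08 was under 1 in 6 alternatives, from 0.11 at 5000 to 10000 UMIs to 0.9955 with the gate at 10 per 10000, and the 8-week ratio of 1.30 was 0.73 after thinning, 0.78 with that gate and 0.46 at 5000 to 10000 UMIs. PIWIL2 stood at 37.1 and 15.0 CPM at 8 weeks, 2.48-fold higher, 1.60 to 4.04, and at 28.9 and 18.6 CPM at 4 weeks. PIWIL4, the nuclear PIWI protein that directs methylation of transposons in male mouse germ cells, stood at 13.4 and 4.08 CPM at 8 weeks and at 7.59 and 4.30 CPM at 4 weeks, too low to be compared.

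Partners of the PIWI proteins showed the widest gaps at 8 weeks. TEX15, needed for piRNA-directed methylation in mouse, stood at 66.2 CPM in members and 16.3 CPM in other germ-gate barcodes, 4.06-fold higher, 2.69 to 6.41. MOV10L1, the helicase that feeds precursors into the pathway, stood at 51.6 and 12.9 CPM, 3.99-fold higher, 2.51 to 6.72. RNF17, a Tudor protein, stood at 59.6 and 15.0 CPM, 3.98-fold higher, 2.59 to 6.44. TDRD1, the Tudor scaffold of germ granules, stood at 66.5 and 19.0 CPM, 3.495-fold higher, 2.38 to 5.33. All 4 intervals lie above 2-fold. At 4 weeks the same comparison gave 1.67-fold (1.18 to 2.42) for TEX15, 2.34-fold (1.35 to 4.30) for MOV10L1, 1.88-fold (1.37 to 2.61) for RNF17 and 1.504-fold (0.99 to 2.34) for TDRD1, and MOV10L1 and TDRD1 were under the level needed for a call.

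TDRD9, ASZ1, TEX19 and MORC1 were also at least 2-fold higher in 8-week members, at 2.06-fold to 2.21-fold, with lower bounds of 1.36 to 1.67. HENMT1, which caps piRNA ends with a methyl group, did not separate the groups at 8 weeks, with 133 CPM in members and 116 CPM in other germ-gate barcodes, 1.15-fold, 0.98 to 1.37. GTSF1, a PIWI cofactor, stood at 94.8 and 68.7 CPM, 1.38-fold, 1.11 to 1.72. MYBL1, a transcription factor that drives piRNA genes in mouse spermatocytes, stood at 31.7 and 40.8 CPM. FKBP6 was at or near 0 in every group. The whole list, with MAEL and DDX4 of the rule, summed to 1241 CPM in members and 572 CPM in other germ-gate barcodes at 8 weeks, and to 866 and 597 CPM at 4 weeks.

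**Figure D3:**
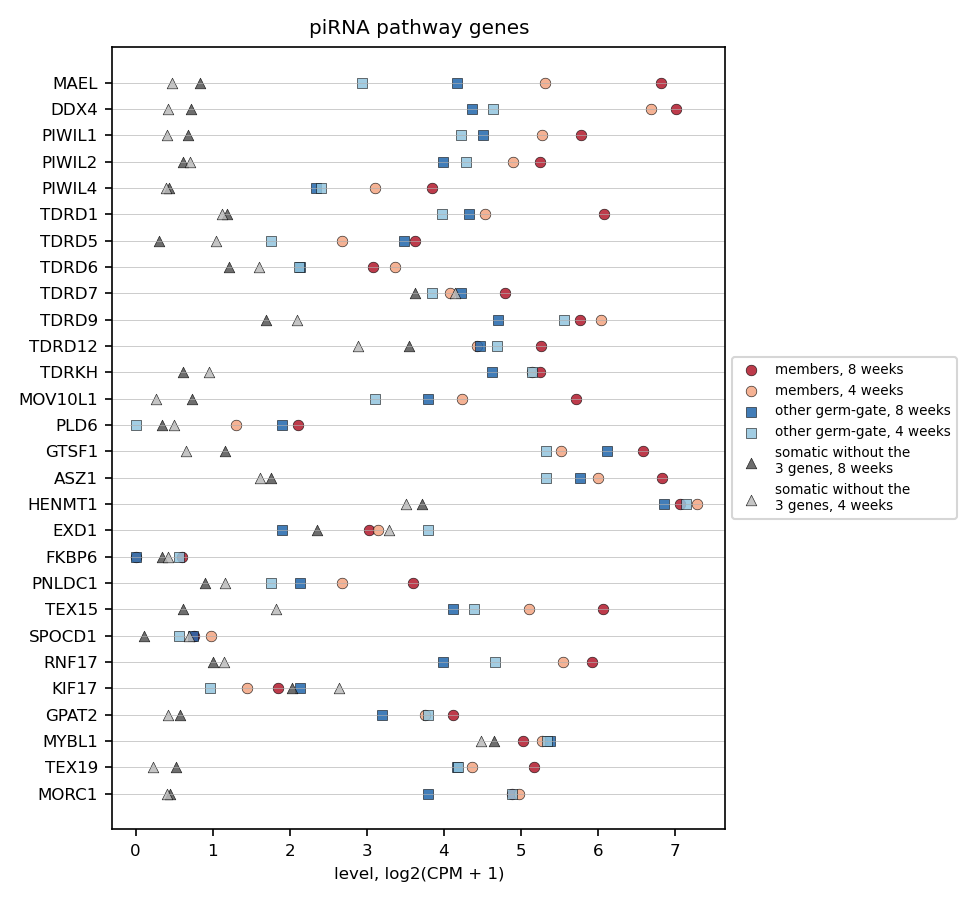
Levels of 28 piRNA pathway genes as log2(CPM + 1), 1 row per gene, with circles for members, squares for other germ-gate barcodes and triangles for somatic barcodes without DAZL, MAEL or DDX4. At 8 weeks (dark symbols) TEX15, MOV10L1, RNF17 and TDRD1 stand furthest apart between members and other germ-gate barcodes, 3.495-fold to 4.06-fold; MAEL and DDX4 were used to choose the members.

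Among RNA-binding genes of germ cells, RBM46 and ELAVL2 were at least 2-fold higher in members at 8 weeks. They were 2 of 18 comparable genes, with 0 lower, against 1.28% higher over all genes, and the median log2 ratio was 0.23. At 4 weeks 0 of 18 passed 2-fold, against 0.156% higher over all genes, with a median of 0.20. RBM46, which controls germ cell mRNAs in mouse meiosis, stood at 136 CPM in members and 58.5 CPM in other germ-gate barcodes at 8 weeks, 2.33-fold higher, 1.87 to 2.95. ELAVL2, a neuronal-type RNA stabiliser, stood at 91.97 and 38.8 CPM, 2.37-fold higher, 1.80 to 3.18. BOLL, a relative of DAZL, stood at 35.5 and 21.8 CPM, 1.63-fold, 1.12 to 2.45.

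The members held the meiotic cohesin genes SMC1B and STAG3 at a higher level than other germ-gate barcodes at 8 weeks, and STRA8 at a low level that was above that of somatic barcodes. Of 33 meiosis genes in the files, 11 could be compared with other germ-gate barcodes at 8 weeks, 2 were at least 2-fold higher in members and 0 lower, with a median of 0.53, against 1.28% higher over all genes. At 4 weeks 0 of 9 passed 2-fold, against 0.156% over all genes, and the median was 0.18. SMC1B, the meiotic cohesin subunit, stood at 238 CPM in members and 112 CPM in other germ-gate barcodes at 8 weeks, 2.12-fold higher, 1.80 to 2.51, and at 154 and 110 CPM at 4 weeks. STAG3, its partner subunit, stood at 45.8 and 19.0 CPM at 8 weeks, 2.41-fold higher, 1.63 to 3.69. REC114, needed for meiotic DNA breaks, stood at 109 and 85 CPM at 8 weeks and at 53.6 and 53.5 CPM at 4 weeks.

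STRA8, the retinoic acid target that starts meiosis, stood at 8.36 CPM in members and 1.85 CPM in somatic barcodes at 8 weeks, 4.53-fold higher, 3.22 to 6.28, and at 10.04 and 2.18 CPM at 4 weeks, 4.61-fold higher, 3.17 to 6.56. After thinning, a STRA8 UMI was found in 4.46% (2.52 to 7.26) of members and 0.778% of somatic barcodes at 8 weeks and in 8.29% (4.81 to 13.1) and 1.22% at 4 weeks. SYCP3, the axial element of meiotic chromosomes, stood at 3.13 and 1.59 CPM at 8 weeks, 1.97-fold, 1.13 to 3.22, from 18 UMIs in members, and at 2.45 and 1.73 CPM at 4 weeks, 1.41-fold, 0.66 to 2.70. A SYCP3 UMI was found after thinning in 1.19% (0.325 to 3.02) of members and 0.808% of somatic barcodes at 8 weeks, and in 0 of 193 members at 4 weeks, which allows a share of up to 1.55%, against 0.775% of somatic barcodes. The thinned shares of SYCP3 in members were not distinguishable from those in somatic barcodes at this depth. SYCP1, another structural gene of meiotic chromosomes, stood at 19.9 CPM in members at 8 weeks and 35.0 CPM at 4 weeks, against 8.27 and 9.26 CPM in somatic barcodes. DMC1, the meiotic recombinase, stood at 4.36 and 2.94 CPM in members.

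Oogenesis genes were sparse in members. The male fetal germ gene list summed to 1284 CPM in members, 887 CPM in other germ-gate barcodes and 404 CPM in somatic barcodes at 8 weeks. At 4 weeks the sums were 959, 903 and 546 CPM in the same order. No sex is read from these sums. Of 16 oogenesis genes 0 had a mean of 20 CPM in the comparisons of members with other germ-gate or somatic barcodes or between stages, and they summed to 52.1 CPM in members and 18.4 CPM in somatic barcodes at 8 weeks and to 28.9 and 16.9 CPM at 4 weeks. SOHLH1, a helix-loop-helix factor of early oocytes and spermatogonia, gave 21.3 CPM of this sum at 8 weeks and 3.92 CPM at 4 weeks. FIGLA and NOBOX, oocyte transcription factors, were at 2.09 and 0.523 CPM at 8 weeks. NANOS2, the male fetal germ cell factor, had 0 UMIs in all groups, and DNMT3L, which prospermatogonia use for methylation in mouse, stood at 0.871 CPM at 8 weeks and 1.71 CPM at 4 weeks. Of 10 genes of the male list that could be compared, 4 were at least 2-fold higher in 8-week members than in other germ-gate barcodes, against 1.28% over all genes. They were TDRD1, TEX15 and MORC1, which the piRNA list shares, and STK31, a Tudor-domain kinase, at 144 and 51.7 CPM, 2.79-fold higher, 2.21 to 3.58. At 4 weeks 0 of 10 passed 2-fold, against 0.156% higher over all genes, and nothing is read from that 0.

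Genes lower in members than in other germ-gate barcodes included steroidogenic markers at both stages, 3 of 4 compared at 8 weeks and 3 of 4 at 4 weeks, and stroma markers at 8 weeks, 4 of 5 compared. Over all genes 1.46% were at least 2-fold lower at 8 weeks. The steroidogenic median per barcode was close, at 1.635 per 10000 in members and 1.516 in other germ-gate barcodes at 8 weeks. It was 0.98 and 0.992 at 4 weeks. At least 10 per 10000 were held by 3 of 143 and 5 of 168 other germ-gate barcodes, the highest at 85.5 and 156. In each library 1 member did so. The part of these few barcodes in the lower levels was not tested. The stroma median was 3.06 in members and 5.02 in other germ-gate barcodes at 8 weeks. The remaining lower genes were not grouped. At 4 weeks 12 genes were at least 2-fold higher (0.156%) and 29 lower (0.376%) of 7712. Of the 74 and 8 lower genes that could be compared in both libraries, 5 were shared, which is 6.76% of the 8-week and 62.5% of the 4-week genes. CYP17A1, the enzyme of androgen precursors, stood at 53.7 CPM in members and 141 CPM in other germ-gate barcodes at 8 weeks and at 47.0 and 224 CPM at 4 weeks, while somatic barcodes held 874 and 839 CPM. CYP11A1, which cleaves the side chain of cholesterol, stood at 11.5 and 50.3 CPM at 8 weeks and at 17.9 and 58.8 CPM at 4 weeks. DLK1, a Notch-family surface protein, stood at 142 and 333 CPM at 8 weeks and at 51.2 and 103 CPM at 4 weeks, with 1336 and 445 CPM in somatic barcodes. DAB2 and the locus LOC106823480 were the other shared genes, and NXPH1, ANGPT1 and CCER1 met the naming rule as well. With the gate at 10 per 10000 the log2 ratio of DAB2 turned round, to 0.40 at 8 weeks and 0.12 at 4 weeks, and that of CCER1 was 0.20 at 8 weeks in barcodes of 10000 to 20000 UMIs. NXPH1 and DAB2 were also higher in somatic barcodes, at 73.2 CPM and 115 CPM at 8 weeks, while CCER1 stood at 0.623 CPM there. The part of RNA from somatic cells in these ratios was not tested.

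Besides PIWIL1, the naming rule gave 3 genes higher in members of both libraries. MSX2, a homeobox target of BMP signals, stood at 30.1 CPM in members and 10.2 CPM in other germ-gate barcodes at 8 weeks, 2.95-fold higher, 1.74 to 5.39, and at 22.3 and 9.56 CPM at 4 weeks, 2.33-fold higher, 1.43 to 3.995. HS6ST3, a heparan sulfate sulfotransferase, stood at 20.2 and 6.12 CPM at 8 weeks and at 20.6 and 6.69 CPM at 4 weeks. SLC35F2, a membrane transporter, stood at 20.9 and 8.16 CPM at 8 weeks and at 38.7 and 18.6 CPM at 4 weeks. At 4 weeks the direction of both turned round under an alternative, with a log2 ratio of -0.26 for HS6ST3 at 5000 to 10000 UMIs and of -1.34 for SLC35F2 after thinning. BMPR1B, a BMP receptor, stood at 106 and 44.9 CPM at 8 weeks, 2.37-fold higher, 1.83 to 3.10.

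Pluripotency and germline factors are described with the gate genes that both groups had to pass. Of 14 comparable genes at 8 weeks and 17 at 4 weeks, the gate genes among them, 0 were 2-fold higher or lower, with median log2 ratios of -0.07 at both stages. Over all genes 1.28% were higher and 1.46% lower at 8 weeks and 0.156% and 0.376% at 4 weeks, so lists of this size would hold few or none, and nothing is read from the counts. SOX15, a SOX factor of early germ cells, came closest at 8 weeks with 33.3 CPM in members and 59.2 CPM in other germ-gate barcodes, 1.78-fold lower, and 48.0 and 55.0 CPM at 4 weeks. Of the cycling genes, those of G2 and M phase leaned higher in members. S phase genes had medians of 0.20 at 8 weeks and 0.17 at 4 weeks, against 0.12 and 0.09 over all genes. At each stage 0 of 36 were at least 2-fold higher. For G2 and M phase genes the median was 0.59 at 8 weeks, where 4 of 44 were at least 2-fold higher, and 0.42 at 4 weeks, where 0 of 47 were. CENPF, a kinetochore protein, stood at 603 and 264 CPM at 8 weeks, and MKI67, a marker of cycling cells, at 116 and 40.8 CPM. The ribosomal protein list had medians of -0.29 at 8 weeks and -0.22 at 4 weeks, and 0 of its 48 genes passed 2-fold. Depth moved with these lists, since members were the deeper group.

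Across the germ gate at 8 weeks, barcodes with more DAZL, MAEL and DDX4 held more piRNA genes. LIN28A was lower at 2 or more UMIs of the 3 genes than at 0 or 1. Barcodes were thinned to 5000 UMIs and placed by their UMIs of the 3 genes, which gave 151 barcodes with 0 UMIs, 139 with 1, 139 with 2 to 3 and 50 with 4 or more. The piRNA list without MAEL and DDX4 summed to 656, 803, 1078 and 1362 CPM in this order. TDRD1 stood at 27.4, 35.7, 77.5 and 131 CPM and STK31 at 82.0, 91.8, 163 and 220 CPM. POU5F1 stood at 648, 683, 433 and 230 CPM. TFAP2C stood at 253, 295, 198 and 128 CPM, and LIN28A, an RNA-binding pluripotency factor, at 21.2, 29.9, 11.8 and 6.02 CPM. POU5F1 and TFAP2C belong to the gate, which sets a floor under the sum of its genes. The part of the gate in their levels was not tested, so they are given as a description.

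The gate genes did not all go the same way. NANOS3, a germline RNA regulator, stood at 178, 200.4, 212.5 and 257.5 CPM across the same 4 steps, and DND1 at 127, 149, 133 and 141 CPM. NANOG stood at 383, 428, 323 and 232 CPM. Because the gate acts on the sum, a barcode low in POU5F1 passed only when the other gate genes made up that sum. The part of this rule in the levels of NANOS3 and DND1 was not tested, and nothing is read from them. SALL4 varied without order, at 112, 135, 107 and 113 CPM. The meiosis list summed to 752.5, 849.5, 1114 and 1264 CPM, with SMC1B at 151, 188, 275.5 and 268 CPM. STRA8 at 7.94, 6.82, 10.9 and 3.61 CPM and SYCP3 at 3.97, 4.20, 1.36 and 3.61 CPM showed no order. The G2 and M phase list stood at 6714, 7538, 7941 and 7204 CPM. CENPF at 490, 626, 549 and 405.5 CPM and MKI67 at 94.4, 74.5, 137 and 81.8 CPM showed no order.

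At 4 weeks POU5F1 was level over the same steps, at 916, 946, 937 and 975 CPM, while the piRNA list stood at 624, 687, 810 and 856 CPM. These steps held 211, 103, 41 and 6 barcodes, so the last rests on few. Whether the stages differ in this relation was not tested.

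**Figure D4:**
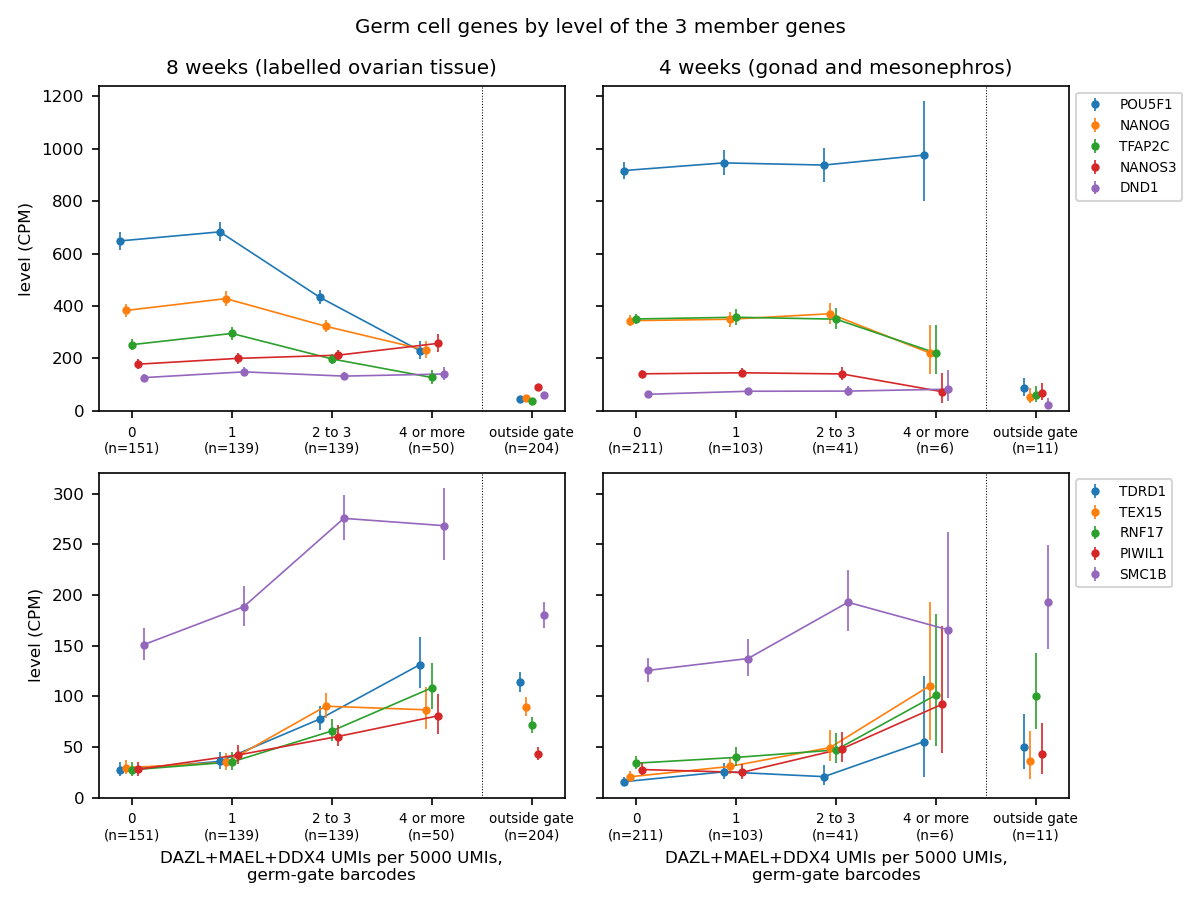
Levels in CPM with 95% counting intervals of 5 gate genes (top) and 5 genes of the piRNA and meiosis lists (bottom) against the UMIs of DAZL, MAEL and DDX4 per 5000 UMIs, for germ-gate barcodes at 8 weeks (left) and 4 weeks (right). POU5F1 is 648 CPM at 0 UMIs and 230 CPM at 4 or more at 8 weeks, and 916 and 975 CPM at 4 weeks; the points right of the dotted line are barcodes outside the gate that held at least 2 UMIs of the 3 genes.

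Many 8-week barcodes with DAZL, MAEL or DDX4 lay outside the germ gate, and their piRNA list sum was close to that of members. Their low POU5F1, NANOG, TFAP2C, NANOS3 and DND1 are fixed by the choice. Of 600 barcodes in the UMI window with at least 2 UMIs of the 3 genes at 8 weeks, 336 were members (56.0%, 51.9 to 60.0) and 204 had a germ gene sum under 5 per 10000 (34%, 30.2 to 38.0). At 4 weeks 193 of 225 were members (85.8%, 80.5 to 90.1) and 11 had a sum under 5 (4.89%, 2.47 to 8.58). The 204 barcodes outside the gate held DAZL at 126 CPM, MAEL at 128 CPM and DDX4 at 119 CPM, which are values of the choice. The following genes were not used for it. STK31 stood at 146 CPM outside the gate and 144 CPM in members, RBM46 at 120 and 136 CPM, TEX15 at 89.4 and 66.2 CPM, and TDRD1 at 114 and 66.5 CPM. The piRNA list, with MAEL and DDX4 of the rule, summed to 1244 CPM outside the gate and 1241 CPM in members.

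Other germ cell genes were lower outside the gate. KIT stood at 128 CPM outside the gate and 334 CPM in members, EPCAM at 92.4 and 276 CPM, CDH1 at 14.4 and 103 CPM, and LIN28A at 0.697 and 16.7 CPM. HELLS, a chromatin remodeller of DNA methylation, stood at 163 and 629 CPM. Of 7989 genes 489 were at least 2-fold higher outside the gate (6.12%) and 219 lower (2.74%). Of 44 G2 and M phase genes 9 were at least 2-fold lower and 0 higher, with a median of -0.80. Of 22 stress and immediate early genes 8 were at least 2-fold higher, with a median of 0.76. The Sertoli markers summed to 1558 CPM outside the gate and 366 CPM in members, with AMH at 932 and 50.3 CPM, although AMH was under 5 per 10000 in 134 of the 204. The rule limited AMH in members only. These barcodes had a median of 20126 UMIs, and whether some of them hold a pair of cells was not tested.

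Between the stages, members at 8 weeks held more of 3 piRNA genes outside the rule, and less PRDM14, LIN28A, ETV4 and ETV5, than members at 4 weeks. DAZL and MAEL were higher too, but they chose the members. A fixed 2 UMIs admits lower levels in deeper barcodes, and the 4-week members were deeper. Nothing is therefore read from DAZL and MAEL here. The RNA-binding list summed to 2016 CPM (1980 to 2054) at 8 weeks and 2216 CPM (2171 to 2263) at 4 weeks. Of 7857 genes 486 were at least 2-fold higher at 8 weeks (6.19%) and 551 lower (7.01%), with a median log2 ratio of -0.10. Somatic barcodes differed between the libraries to a similar extent, with 404 of 7950 genes higher (5.08%) and 508 lower (6.39%), so somatic values are given for many of the genes below. At 8 weeks the somatic barcodes include the 204 outside the gate that held DAZL, MAEL or DDX4. Those 204 held RBM46 at 120 CPM and ANHX at 131 CPM.

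Of 18 piRNA genes 4 were at least 2-fold higher at 8 weeks and 0 lower, with a median of 0.63, against 6.19% higher and 7.01% lower over all genes. MAEL and DDX4 are among the 18. The higher genes were MAEL, which the rule used, TDRD1 at 66.5 CPM at 8 weeks and 22.3 CPM at 4 weeks (2.99-fold higher, 2.37 to 3.80), MOV10L1 at 51.6 and 17.9 CPM (2.89-fold, 2.23 to 3.78) and GTSF1 at 94.8 and 44.8 CPM (2.12-fold, 1.79 to 2.52). Somatic barcodes held TDRD1 at 6.56 and 1.41 CPM, MOV10L1 at 3.77 and 0.402 CPM and GTSF1 at 4.43 and 0.68 CPM at 8 and 4 weeks. The 204 barcodes outside the gate, counted as somatic at 8 weeks, held TDRD1 at 114 CPM and MOV10L1 at 66.7 CPM. No rise in somatic cells is therefore read from these somatic values. Of 20 RNA-binding genes 5 were higher and 3 lower. RBM46 stood at 136 and 60.7 CPM and ELAVL2 at 91.97 and 32.6 CPM in members, with 9.53 and 1.38 CPM and 9.09 and 3.28 CPM in somatic barcodes. RBMXL2, a testis RNA-binding protein, stood at 73.2 and 30.4 CPM, and DAZL and DND1 of the rule made up the 5. Among the lower genes were LIN28A at 16.7 and 52.9 CPM (3.16-fold, 2.48 to 4.07) and IGF2BP2 at 138 and 361 CPM. Somatic barcodes held LIN28A at 0.426 and 0.479 CPM and IGF2BP2 at 266 and 476 CPM.

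Pluripotency and germline factors, the gate genes among them, leaned lower, with 4 of 17 at least 2-fold lower at 8 weeks, 1 higher and a median of -0.72. Over all genes 7.01% were lower and 6.19% higher. PRDM14, a repressor that guards germ cell identity in mouse, stood at 15.9 CPM at 8 weeks and 37.0 CPM at 4 weeks, 2.33-fold lower, 1.79 to 3.06. ETV4 and ETV5, ETS factors downstream of growth factor signals, stood at 8.19 and 35.3 CPM and at 31.0 and 64.9 CPM. Somatic barcodes held PRDM14 at 0.896 and 0.587 CPM, ETV4 at 3.70 and 10.6 CPM and ETV5 at 10.7 and 14.6 CPM. POU5F1 was 1.84-fold lower, 1.75 to 1.93, and TFAP2C 1.65-fold lower, 1.53 to 1.78, while NANOG was level at 0.99-fold, 0.92 to 1.06. UTF1 went the other way at 177 and 127 CPM, 1.40-fold, 1.26 to 1.56. DND1, a gate gene and the 1 higher gene of this list, stood at 135.5 and 66.3 CPM, 2.04-fold, 1.78 to 2.35.

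Among genes of DNA methylation 3 of 11 were at least 2-fold lower at 8 weeks and 0 higher, against 7.01% lower and 6.19% higher over all genes. UHRF2, a reader of methylated DNA, stood at 88.1 CPM at 8 weeks and 294 CPM at 4 weeks, against 52.7 and 70.4 CPM in somatic barcodes. HELLS stood at 629 and 1297 CPM, against 59.5 and 68.8 CPM in somatic barcodes, and TET1, which oxidises methylcytosine, at 147 and 297 CPM, against 67.2 and 57.9 CPM in somatic barcodes. UHRF1, which recruits the maintenance methyltransferase, was low in members of both stages at 12.2 and 8.81 CPM, below the 30.6 and 38.3 CPM of somatic barcodes, and DNMT3B stood at 2.27 and 2.20 CPM.

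Signalling and adhesion genes moved in both directions. CDH1 stood at 103 CPM at 8 weeks and 312 CPM at 4 weeks, 3.03-fold lower, 2.75 to 3.35, and the integrin genes ITGA6 and ITGAV stood at 37.1 and 86.7 CPM and at 44.1 and 138 CPM. Somatic barcodes held ITGA6 at 19.8 and 66.1 CPM and ITGAV at 74.7 and 181 CPM, also lower at 8 weeks, and CDH1 at 2.12 and 9.51 CPM. KIT stayed close, at 334 and 359 CPM. ID3, a BMP target, stood at 394 and 126 CPM in members and at 377 and 221 CPM in somatic barcodes. CRABP1, which binds retinoic acid in the cytoplasm, stood at 377.5 and 133 CPM in members, 2.83-fold higher, 2.57 to 3.11, and at 39.1 and 31.1 CPM in somatic barcodes. RARB, a retinoic acid receptor, stood at 37.8 and 92.1 CPM in members and at 9.95 and 53.0 CPM in somatic barcodes. CXCL12 and PDGFRA, stromal genes, were 2.67-fold and 2.06-fold higher in members and stood at 346 against 115 CPM and 180 against 74.9 CPM in somatic barcodes of 8 against 4 weeks. Meiosis genes had 2 of 14 at least 2-fold higher and 1 lower, against 6.19% higher and 7.01% lower over all genes, and nothing is read from these counts. REC114 and the helicase gene HFM1 were higher, HFM1 being also 116 and 45.1 CPM in somatic barcodes. TEX11, an X-linked crossover gene in mouse and human, stood at 21.3 and 54.6 CPM in members and 5.69 and 7.70 CPM in somatic barcodes.

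The 12 genes with the highest stage ratios ran from ANHX to CCDC115, and nothing is read from what they have in common. ANHX, a homeobox gene, stood at 110 CPM at 8 weeks and 18.1 CPM at 4 weeks, 6.08-fold higher, 4.77 to 7.84, with 11.4 and 2.41 CPM in somatic barcodes. TEX30 stood at 169 and 38.7 CPM, 4.37-fold higher, 3.69 to 5.201, with 35.8 and 13.2 CPM in somatic barcodes. FMR1NB was 3.28-fold higher, 3.04 to 3.54, and RPA2, a subunit of the single-strand DNA binding complex, stood at 282 and 78.4 CPM, 3.59-fold higher, 3.19 to 4.06, with 80.3 and 41.6 CPM in somatic barcodes. RPA3 of the same complex stood at 464 and 128 CPM in members and at 247 and 94.3 CPM in somatic barcodes. APOE, a lipid carrier that somatic barcodes held at 937 and 426 CPM, stood at 260 and 71.5 CPM in members. IFTAP, GSTA4, FAAP20, PSMB3, ENHO and CCDC115 completed the 12, at 3.25-fold to 4.46-fold.

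Among the 12 genes with the lowest stage ratios, CPNE4 and CDH8 were low in somatic barcodes of both libraries. CPNE4, a calcium-dependent membrane binder, stood at 12.2 CPM at 8 weeks and 108 CPM at 4 weeks, 8.84-fold lower, 6.85 to 11.5, with 1.88 and 3.39 CPM in somatic barcodes. CDH8, a cadherin of neurons, stood at 35.2 and 218 CPM, 6.19-fold lower, 5.31 to 7.25, with 3.65 and 2.58 CPM in somatic barcodes. NALF1, a subunit of a sodium leak channel complex, stood at 104 and 554 CPM, and LRRTM4, a synaptic adhesion protein, at 31.9 and 158 CPM, with NALF1 at 23.0 and 48.9 CPM and LRRTM4 at 6.36 and 4.39 CPM in somatic barcodes. The other germ-gate barcodes at 4 weeks held these genes too, with CPNE4 at 82.7 CPM, CDH8 at 225 CPM, NALF1 at 530 CPM and LRRTM4 at 163 CPM. S100G, a calcium-binding protein, stood at 2.61 and 120.0 CPM in members, and somatic barcodes held it at 2.91 and 635 CPM, so its ratio followed theirs in direction. RPL37A did the same, at 682 and 2658 CPM in members and 586 and 2593 CPM in somatic barcodes. BCAS3, KIAA0825, SHISA9, SFMBT2, GARRE1 and TNFRSF19 completed the 12, at 4.002-fold to 5.66-fold lower.

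**Figure D5:**
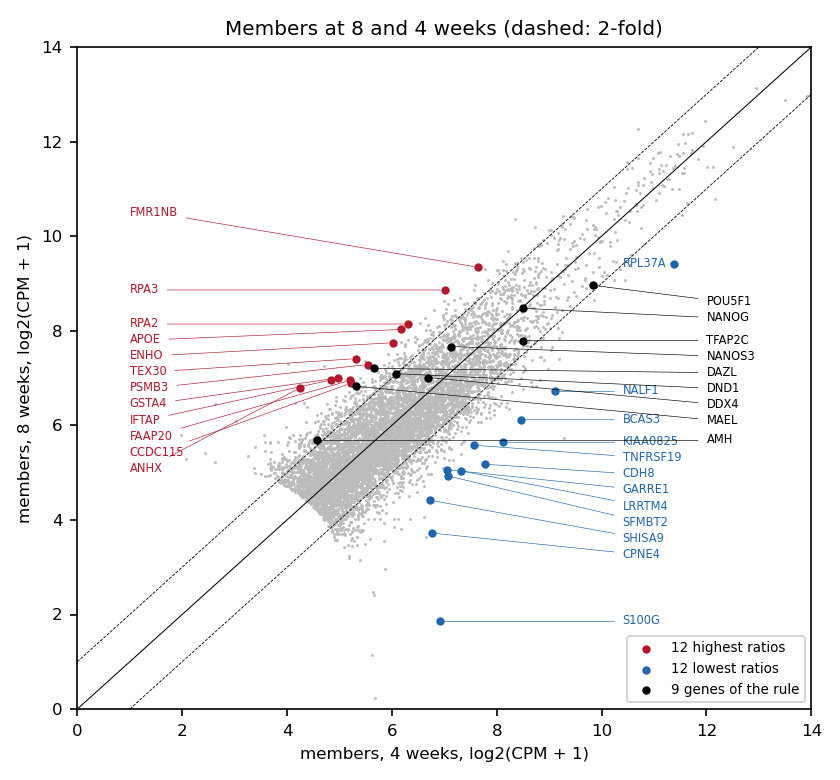
Level of each compared gene in members at 8 weeks (vertical) and 4 weeks (horizontal), both as log2(CPM + 1), with the 12 highest ratios in red, the 12 lowest in blue and the 9 genes of the rule in black. Solid and dashed lines mark equal levels and 2-fold; DAZL and MAEL lie above the upper dashed line, POU5F1 and TFAP2C lie between the lines, and of the labelled genes S100G lies furthest below.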

How the data were processed

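The authors deposited whole-number UMI counts per gene and barcode, not normalized. The version of Cell Ranger is 7.1.0 in the file headers but 2.1.1 in the submitters' processing notes. The labels' protocols name a DNBelab C series kit, while the barcodes have the form Cell Ranger writes for 10x Genomics chemistry. For build, annotation and intron setting, nothing is stated (not given in the sources used here). Of 38517 features 16536 carried a deposited symbol, and the RefSeq table of EquAss-T2T_v2 named 768 more. Counts were summed over each group of barcodes with Python 3.11.15, numpy 2.4.6, scipy 1.17.1 and pandas 2.3.3. CPM carry exact Poisson intervals, shares Clopper-Pearson intervals and ratios exact conditional binomial intervals. Only the ratios and their intervals were checked on simulated data. All these intervals cover counting error only. A gene was compared at a mean of 20 CPM and counted at 2-fold, with 0.5 UMI added on the log2 scale. Libraries held 155128130 UMIs at 8 weeks and 122341903 at 4 weeks, and 7377 and 5307 barcodes lay in the UMI window. With 1 library per stage no p-value was computed. No doublet caller was run. The upper UMI and AMH limits of the rule, and an alternative limit of 20000 UMIs, bear on doublets. Thinning drew 5000 UMIs per barcode with seed 7.

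Members and the 26 gene lists were chosen with earlier results of these data known. Named genes are the 12 highest and 12 lowest stage ratios in members, for symbols at 100 CPM or more in the higher library. They are also the genes at least 2-fold apart from other germ-gate barcodes in both libraries, with 20 CPM in the higher group. The 15 highest ratios over somatic barcodes in both libraries, at 50 CPM or more, the list genes and the 9 rule genes complete them. Alternatives changed the UMIs that make a member, depth, the upper UMI limit, the gate, shared barcodes, the weight of barcodes and the filter.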

Additional observations from a re-analysis of the deposited data

Results flagged for a closer look

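Some barcodes outside the UMI window met the rest of the rule. Under 5000 UMIs these were 57 of 6491 barcodes at 8 weeks and 6 of 2917 at 4 weeks. Over 40000 UMIs they were 26 of 725 at 8 weeks and 21 of 714 at 4 weeks. They stood out because the comparisons do not use them, and they were not described further.

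VEGFC, a growth factor of lymphatic vessels, went opposite ways in the libraries. Its log2 ratio of members over other germ-gate barcodes was -1.15 at 8 weeks and 1.27 at 4 weeks. The difference between the libraries was not tested.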

How the results depend on the processing

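Of 112 values that answer a comparison, 62 stayed within their spread or within 1.5 times and 50 did not. For these the cause was not tested beyond what each alternative changes. The median log2 ratio of the piRNA list against other germ-gate barcodes stayed positive under each alternative that gave one, from 0.65 to 1.07 at 8 weeks and from 0.24 to 0.80 at 4 weeks. No paired analysis was possible because each stage is 1 library without replicate numbers. No replicate could be left out for the same reason.

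In the order of window share at 8 and 4 weeks and germ-gate share at 8 and 4 weeks, members were 3.71%, 2.11%, 57.2% and 31.0% with 3 UMIs required. They were 2.40%, 0.867%, 38.7% and 13.3% after thinning to 5000 UMIs, and 3.90%, 2.07%, 63.2% and 37.5% with at most 20000 UMIs. With the gate at 10 per 10000 the 8-week shares were 3.09% and 65.7%. The 4-week shares were 3.32% and 54.2% there, so the window share was then higher at 4 weeks.

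For members at 8 over 4 weeks, 1082 genes were lower after thinning. With a mean of 50 CPM 272 were higher and 315 lower, and with 10 UMIs over both groups 1635 and 1889. Against other germ-gate barcodes at 8 weeks, the higher and lower counts were 49 and 57 with the gate at 10 per 10000, 29 and 51 at 50 CPM, and 884 and 1012 with 10 UMIs. With equal weight of barcodes 65 were higher. At 4 weeks they were 259 and 163 after thinning, 41 and 67 with at most 20000 UMIs, 0 and 7 at 50 CPM, and 541 and 622 with 10 UMIs. With equal weight 23 were higher. Against somatic barcodes they were 669 and 554 at 8 weeks and 695 and 588 at 4 weeks at 50 CPM. With 10 UMIs they were 4949 and 5616 at 8 weeks and 4549 and 6261 at 4 weeks.

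In depth ranges chosen after seeing the data, 345 were lower than in other germ-gate barcodes at 8 weeks in barcodes of 5000 to 10000 UMIs. At 4 weeks 769 were higher and 489 lower there. In barcodes of 10000 to 20000 UMIs the counts were 230 and 255 at 8 weeks and 51 and 94 at 4 weeks. Smaller sums hold fewer UMIs per gene at the same CPM filter.

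Of named genes 5 values changed direction against other germ-gate barcodes, and the cause was not tested. SLC35F2 at 4 weeks was -1.34 (log2) after thinning. DAB2 was 0.40 at 8 weeks and 0.12 at 4 weeks with the gate at 10. HS6ST3 at 4 weeks was -0.26 at 5000 to 10000 UMIs, and CCER1 at 8 weeks was 0.20 at 10000 to 20000 UMIs. PIWIL1 ran from 0.46 to 1.45 at 8 weeks and from 0.11 to 1.16 at 4 weeks, so its 2-fold call was lost in 3 and 6 alternatives.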
